A study of Mus musculus with 12 samples.

Results

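The comparison described here is between 800 µM and 200 µM 4-thiouridine (4sU) when the label was converted on isolated RNA in tubes. Of the 12 libraries of the study, 4 belong to it, namely replicates A and B at each dose. They were taken by their labelled dose and procedure. All came from wild-type NIH-3T3, a mouse fibroblast cell line that took up 4sU for 2 h before total RNA was isolated. In the tube procedure the iodoacetamide reaction ran for 1 h at 37 °C. The other libraries were 2 tube libraries without 4sU and 6 libraries converted in methanol-fixed cells, 2 each without 4sU and at the same doses. Fixed cells were converted at a higher temperature than the RNA in tubes. Whether replicates came from different cultures is not stated, so each p-value reflects the spread among libraries alone, and that spread may be technical.

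4sU is a uridine analogue that cells take up, phosphorylate and build into RNA while they transcribe. Iodoacetamide alkylates its sulfur, and reverse transcriptase then reads the base as C, so that reads of new RNA carry T-to-C changes and reads of old RNA do not. A read can be told to be new only if it crosses uridines that were replaced, so both the dose and the number of U in a transcript set how much each read says. A higher dose labels RNA more densely, while dense labelling is also known to disturb cells and to cost labelled RNA during library making.

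How the U content of a transcript varies is shown by 4 genes, the lowest pair and the highest pair by U share among protein-coding genes whose mean ratio lay between 20% and 80%, genes on chromosomes X, Y and 18 left out and a transcript of exactly the deposited length required. Each stretch is 60 bases of coding sequence from GENCODE M21 (GRCm38), 5′ to 3′, picked as the first window closest to its transcript's own U share, with T (U in the RNA) in capitals.
Sap30l: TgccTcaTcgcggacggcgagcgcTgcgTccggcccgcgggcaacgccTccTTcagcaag
Rrbp1: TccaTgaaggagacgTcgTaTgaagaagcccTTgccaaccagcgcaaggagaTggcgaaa
Rbbp6: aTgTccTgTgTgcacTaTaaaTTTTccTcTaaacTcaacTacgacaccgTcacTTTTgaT
Metap1: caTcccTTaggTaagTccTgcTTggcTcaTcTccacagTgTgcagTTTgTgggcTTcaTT
The stretches of Sap30l and Rrbp1 hold 8 T each, those of Rbbp6 and Metap1 21 each. Sap30l (chromosome 11, 57801637 to 57810217) codes for a protein of a histone deacetylase complex, and 12.6% of its 1151-base transcript is U. Rrbp1 (chromosome 2, 143947395 to 144011263) codes for a ribosome-binding protein of the endoplasmic reticulum, with 12.6% U. Rbbp6 (chromosome 7, 122965686 to 123002557), a ubiquitin ligase that binds the retinoblastoma protein, has 35.6% U, and Metap1 (chromosome 3, 138458956 to 138489515), which removes the first methionine of proteins, 35.4%.

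Library totals were 4542666 and 5676517 counts at 200 µM and 7504638 and 6654809 at 800 µM, replicates A and B in that order, as in every list of 4 values that follows. All 14 fibroblast markers, collagens and vimentin among them, passed the filter on low counts, with summed levels of 19503 to 20305 CPM (counts scaled to library size) at 200 µM and 19941 to 20876 at 800 µM. Of 21 markers of epithelial, blood, endothelial, muscle, fat and nerve cells, 2 (Cd68 and Tubb3) passed, with a sum of 11.4 to 15.6 CPM at 200 µM and 9.31 to 9.37 at 800 µM; 8 others were below the filter and 11 were not analysed here. The fixed-cell library at 800 µM, replicate A, stood apart: its scaling factor was 0.8346 against 0.9258 to 1.146 in the rest, and its counts differed from those of replicate B with a chi-square of 22.8 per degree of freedom, against 3.23 to 7.07 in the other groups. It enters only the fits that use fixed cells.

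The deposited table gives for each gene the new-to-total ratio, the fraction of its RNA made during labelling, as a most probable value and as the 0.05 and 0.95 quantiles of its posterior. It was compared in the 6147 genes with at least 100 reads in all 4 libraries. The interval between those quantiles was narrower at 800 µM. Its median width was 12.25 and 11.27 percentage points at 200 µM and 7.96 and 8.53 points at 800 µM, so both libraries at the higher dose were below both at the lower. The ratio of the means was 0.701. By limma on the log2 width, 5530 genes (90%) were narrower at 800 µM at a Benjamini-Hochberg (BH) adjusted p under 0.05 and 12 (0.195%) were wider, with a median log2 difference of −0.52. All genes were measured in the same 4 libraries, so a shift common to a library appears in the calls of very many genes. Over the 4 library medians alone, the exact two-sided permutation p is 0.333, the smallest that 2 against 2 can give. Without 800 µM replicate A, 45% of genes were called narrower, and in a fit that also held the 4 fixed-cell libraries with 4sU, 0 were (1626 of 5532 at an unadjusted p under 0.05), against 89.5% when the fixed-cell library that stood apart was left out.

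Part of that width goes with read number, since the median gene had 299 and 376.5 reads at 200 µM and 495 and 435 at 800 µM. Among the 1007 genes whose mean read numbers at the doses differed by less than 1.2 times, the median log2 difference in width was −0.38; 690 of them passed an unadjusted p of 0.05 and 2 the adjusted one. To lessen the part of read number, the sum of the deposited alpha and beta parameters of each ratio, which acts as a number of observations, was divided by the gene's reads; the quotient still varies with the ratio and with read number. These observations per read had medians of 0.476 and 0.440 at 200 µM and 0.653 and 0.649 at 800 µM. The values at 800 µM lay close together and above both others, at 1.42 times their mean. By limma, 5577 genes (90.7%) rose and 6 (0.0976%) fell, with a median log2 step of 0.48 (exact permutation p over library medians 0.333). With the fixed-cell libraries in the fit 0 genes passed (223 at an unadjusted p under 0.05), and 92.4% did once the library that stood apart was left out.

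**Figure D1:**
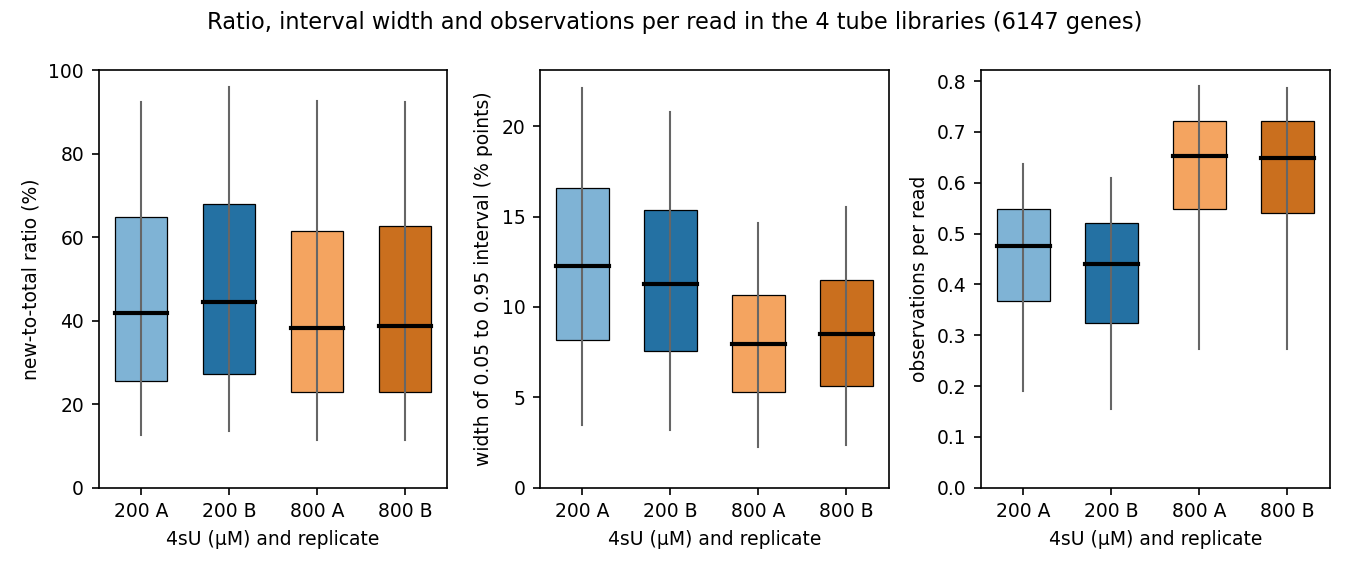
New-to-total ratio (%), width of its 0.05 to 0.95 quantile interval (percentage points) and observations per read over 6147 genes in each tube library, with the median (thick line), the quartiles (box) and the 5% to 95% range (thin line). The intervals at 800 µM have medians of 7.96 and 8.53 points against 12.25 and 11.27 at 200 µM, and both libraries at 800 µM have more observations per read than both at 200 µM.

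The housekeeping gene Actb, cytoplasmic actin, had narrower intervals at 800 µM with nearly the same estimate. Its ratio was 14.47%, 13.93%, 14.20% and 14.05%, and its interval was 0.56, 0.57, 0.37 and 0.39 points wide. Observations per read for Actb were 0.516, 0.482, 0.671 and 0.672, a log2 step of 0.43 (SE 0.06, limma adjusted p = 0.000305). Gapdh, the glycolytic enzyme, had intervals of 5.17, 5.76, 3.46 and 3.44 points at ratios of 11.13%, 10.89%, 9.89% and 9.22%. The intervals of both genes at 800 µM were narrower than at 200 µM in each library. Both 800 µM libraries also held more reads in total, and the part of read number in these widths was not separated.

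The step differed between genes. The largest rises in observations per read included those of Ccl2 (a chemokine) and Thbs1 (thrombospondin, a matrix glycoprotein). Ccl2 had 0.113, 0.0911, 0.449 and 0.458 observations per read, a log2 step of 2.16 (SE 0.31, limma adjusted p = 0.000371). Thbs1 went from 0.111 and 0.116 to 0.475 and 0.483. Both are mostly new RNA: the ratio of Ccl2 was 97.25%, 99.27%, 90.73% and 89.23%. The 6 genes whose observations per read fell, chosen after their values were seen, were Ctgf, Cdc42ep3, Cyr61, Ptgs2, Noct and Fbxo5, and each had a ratio of 100% in both libraries at 200 µM. Ctgf and Cyr61, secreted matrix-associated proteins and targets of YAP and serum response factor, are among them. The interval of Ctgf was 0.32, 0.47, 1.36 and 1.28 points wide (log2 step 1.77, SE 0.17, limma adjusted p = 0.00624), while that of Cyr61 was 0.87, 0.77, 0.65 and 0.72. Fgf7, a growth factor, and Nr2f2, an orphan nuclear receptor, also widened, by log2 steps of 0.97 and 0.81, as their ratio went from 100% in both 200 µM libraries to 96.37% and 98.09% for Fgf7 and to 96.28% and 96.84% for Nr2f2. The 3 largest narrowings went the other way: Zfp142, Ppp1r10 and Nav3 were at 88.96% to 99.00% in the 200 µM libraries and at 100% in both 800 µM libraries, and the width for Zfp142 was 18.6, 15.7, 2.67 and 5.45 points.

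Observations per read followed the U content of the transcript at both doses. Transcripts were matched for 6141 of the 6147 genes, 14012 of all 15217 genes in the table having one of exactly the deposited length. In the 616 genes with the least U (8.57% to 20.3%) the median was 0.394 at 200 µM and 0.577 at 800 µM, and in the 614 genes with the most (30.1% to 40.2%) it was 0.496 and 0.702. Across genes, Spearman's rho between U share and observations per read was 0.178 at 200 µM and 0.231 at 800 µM (n = 6141 genes, which share libraries and are not replicates). For the genes shown above, Sap30l had 0.419, 0.317, 0.633 and 0.629 observations per read and Rrbp1 0.343, 0.326, 0.489 and 0.495. Metap1, rich in U, had 0.550, 0.362, 0.693 and 0.736, and Rbbp6, the richest in U of the 4, had 0.239, 0.179, 0.384 and 0.296, so these 4 genes do not order by U share. The step passed in Sap30l, Rrbp1 and Metap1 and not in Rbbp6 (log2 0.71, SE 0.30, limma adjusted p = 0.0513). Ratios were 24.26% to 31.18% for Rrbp1, 36.41% to 63.44% for Sap30l, 49.36% to 74.40% for Metap1 and 69.37% to 79.17% for Rbbp6. Across genes the ratio followed observations per read more closely than U share did, with a rho of −0.723 at 200 µM and −0.592 at 800 µM over 6147 genes.

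The ratio itself was lower at 800 µM. Library medians were 41.95% and 44.43% at 200 µM and 38.24% and 38.79% at 800 µM, a difference in means of −4.67 points, and 75.8% of genes had a lower fitted value, with a median logit difference of −0.19. Both 800 µM libraries were below both 200 µM libraries, again with an exact permutation p of 0.333. In 2624 genes (42.7%) both 800 µM ratios lay below both 200 µM ratios, and in 419 (6.82%) above. Gene by gene, no difference passed the adjusted threshold in limma on the logit scale (smallest adjusted p = 0.319); 815 genes passed an unadjusted p of 0.05, of which 739 (12%) were lower and 76 (1.24%) higher. When genes were weighted by their deposited interval, 131 passed, 126 of them lower. Without 800 µM replicate A 30 passed and without replicate B 32, but each of these stood at 100% in both 200 µM libraries, which left no spread between replicates, and against them stood 1 library. The size of the shift depends on 200 µM replicate B: without it the median logit difference was −0.13, and without 200 µM replicate A it was −0.24.

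The spread between replicates bounds how far single genes can be read. In the 4271 genes with a mean ratio of 20% to 80%, the median absolute logit difference between A and B was 0.236 at 200 µM and 0.169 at 800 µM. Deposited intervals of A and B did not overlap in 12.6% of all 6147 genes at 200 µM and in 11.8% at 800 µM, so the intervals do not cover the whole difference between replicates. Across doses, they did not overlap in 20.3% to 29.1%. The intervals of both 800 µM libraries lay wholly below those of both 200 µM libraries in 326 genes (5.3%) and wholly above in 6 (0.0976%).

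Those 6, named because the count is small, were Supt3, Ier3, Mat2a, Rgs2, Mex3a and Sec24a. Supt3 (chromosome 17, 44777152 to 45119290), a subunit of a histone acetyltransferase complex, had ratios of 8.63%, 11.28%, 24.77% and 23.89% (logit difference 1.08, SE 0.15, limma adjusted p = 0.319). Ier3, an immediate early gene, had 83.35%, 84.53%, 95.29% and 93.53%. Znhit1, a subunit of a chromatin remodelling complex, had 10.33%, 11.25%, 21.90% and 21.73%, and Dctn5, of the dynactin complex, had 19.25%, 16.02%, 34.97% and 33.03%. In all of these the doses did not overlap, with both 800 µM values the high ones. Among genes with lower ratios, Ubac2 (chromosome 14, 121878620 to 122021034), of endoplasmic reticulum-associated degradation, had 19.72%, 25.18%, 5.09% and 4.89% (logit difference −1.70, SE 0.16, limma adjusted p = 0.319). Appl1, an endosomal adaptor, had 43.53%, 45.03%, 22.96% and 24.48%. Their doses did not overlap either, with both 800 µM values the low ones. The other genes with the smallest p lay at the upper end of the scale, where a step away from 100% is large in logits: Ddx20 (an RNA helicase) had 100%, 100%, 70.86% and 79.90%, and S1pr1 (a sphingosine phosphate receptor) 100%, 100%, 66.65% and 82.19%. In all, 265 genes were at 100% in at least 1 tube library.

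Gene groups were read against the 42.7% of all genes whose ratio was lower in both 800 µM libraries. That share rose with read number, from 30.1% in the 615 genes with the fewest reads to 69.8% in the 615 with the most, so the median reads of each group are given with its count. Of the 21 mitosis genes, 19 were lower and 0 higher, with a median logit difference of −0.41 and 681 reads; none passed the adjusted threshold without interval weights, and with them Cdc20 and Top2a, the members looked up there, did. Cdc20, which activates the anaphase-promoting complex, had ratios of 40.66%, 41.40%, 30.16% and 33.23%, and Top2a, a topoisomerase, 45.60%, 47.33%, 35.84% and 38.12%. Actin and serum response factor genes were lower in 19 of 23 (median −0.30, 3742 reads), and the deposited intervals of 9 of these were wholly lower, against 5.3% of all genes. That 5.3% is not matched for read number, with which part of the interval width goes: all genes had a median of 403 reads. Pfn1 (profilin, which binds actin monomers) had 18.12%, 12.22%, 5.52% and 6.20%, and Msn (moesin, which ties actin to the membrane) 38.12%, 32.83%, 19.35% and 20.65%. In both genes the replicates at 200 µM were further apart than those at 800 µM. The doses did not overlap in either gene, but list members were named by their smallest p, which favours such genes.

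Fibroblast markers were lower in 10 of 12 (median −0.20, 6404 reads) and heat shock genes in 12 of 17 (median −0.14, 1661 reads). Cytosolic ribosomal proteins, 79 genes, were lower in 40 (50.6%) and higher in 4 (median −0.10, 6307 reads). That share is above the 42.7% of all genes but below the 69.8% of the genes with the most reads. Nuclear genes of oxidative phosphorylation were lower in 28 of 61 (45.9%, 1045 reads), against 48.0% to 56.6% of all genes with similar read numbers. Of uridine uptake and salvage genes, which include the enzymes that handle 4sU, 8 of 15 were lower (322 reads). Cad, which starts pyrimidine synthesis, had 35.90%, 32.98%, 24.63% and 27.00%, and Dck, a deoxynucleoside kinase, 56.12%, 68.55%, 43.24% and 48.15%. Among immediate early genes 5 of 28 were lower and 2 higher (median −0.20, 753 reads), and among p53 targets 2 of 9 were lower and 2 higher (816 reads). Zfp zinc finger genes were lower in 19 of 66 (28.8%, 216 reads), near the 30.7% to 33.4% of all genes with similar read numbers. They were higher in 11 of 66, against 8.03% to 10.8% of all genes with similar read numbers. Many immediate early genes sit at the ceiling: Nr4a1, an orphan nuclear receptor, had 100%, 100%, 100% and 99.05%, and Dusp1, a phosphatase, 100%, 100%, 97.42% and 99.12%. No list was called different from the rest, since every member rests on the same 4 libraries.

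The order of the groups changes when each library is centred on its own median, which takes out the common shift. The ratio was then lower in both 800 µM libraries in 12 of 21 mitosis genes and 11 of 23 actin genes, against 19% of all genes. NF-kappaB targets were then lower in 6 of 11. Fibroblast markers were lower in 1 of 12, and ribosomal proteins were higher in 38 of 79, against 20.7% of all genes. Neither the 19% nor the 20.7% is matched for read number. The direction for ribosomal proteins thus depends on centring, with a median of −0.10 without it and 0.09 with it. Other lists with negative medians before centring turned too, among them heat shock (0.05), oxidative phosphorylation (0.07) and uridine uptake and salvage genes (0.12). Genes with low ratios fell less in general. Before centring, the 615 genes with the lowest ratios (up to 16.2%) had a median logit difference of −0.15, against −0.19 over all genes. Ribosomal proteins, with median ratios of 14.1% at 200 µM and 13.0% at 800 µM, lie in that range, so the turn is not particular to them.

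**Figure D2:**
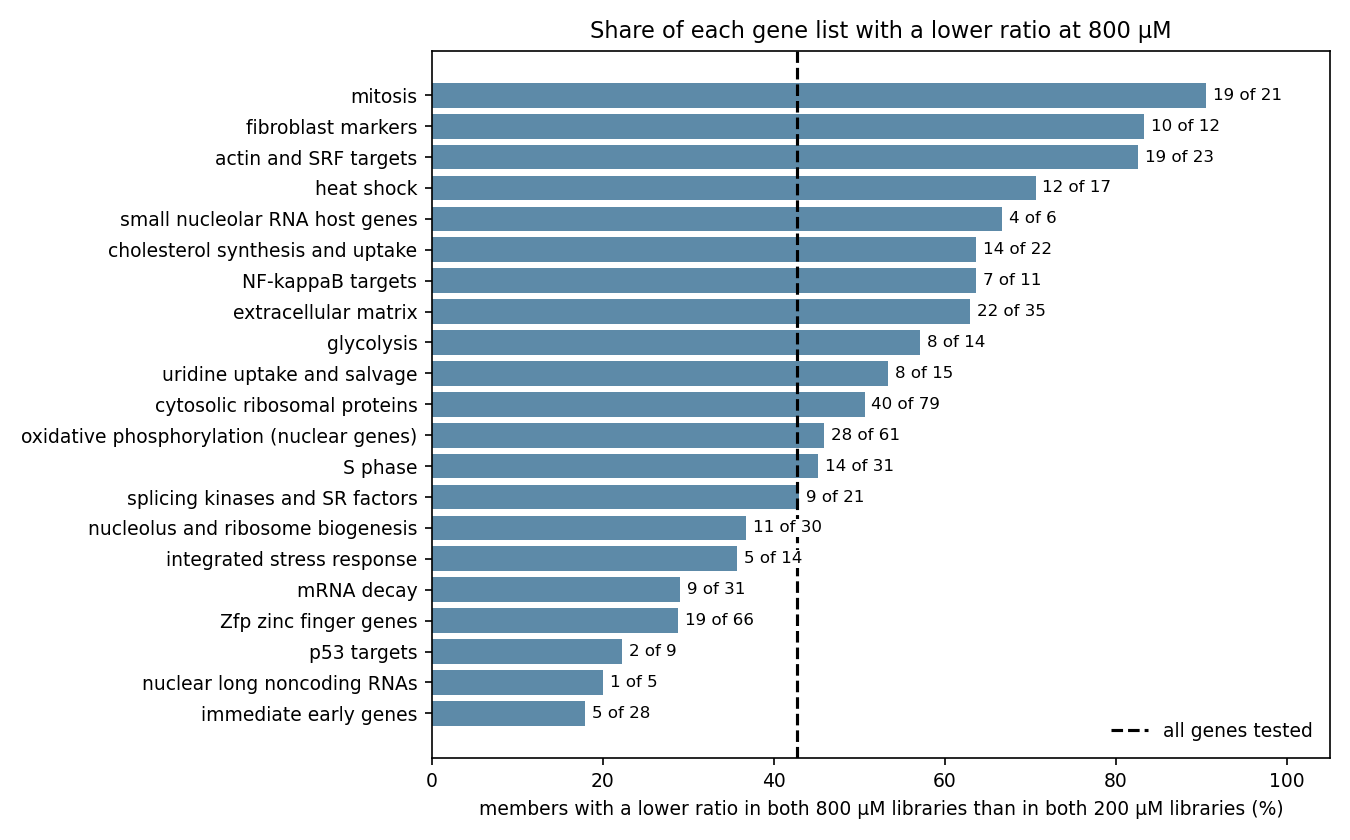
Percentage of the tested members of each gene list whose ratio was lower in both 800 µM libraries than in both 200 µM libraries, with counts beside the bars and all genes (42.7%) as a dashed line. Lists run from mitosis (19 of 21) to immediate early genes (5 of 28); those with fewer than 5 tested members are not drawn. Shares are before centring, which turns the median of the ribosomal proteins, and of other lists such as heat shock, from lower to higher. The dashed line is not matched for read number, with which the share rises.

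For total RNA levels the number of genes called depended on the fit, and the 12-library fit holds the fixed-cell library that stood apart. Among 11080 genes tested with edgeR's quasi-likelihood test over all 12 libraries, 0 passed a BH p of 0.05 (0%, smallest 0.108), and 987 (8.91%) passed an unadjusted p of 0.05, 550 (4.96%) higher and 437 (3.94%) lower. DESeq2 on the same genes called 12, of which 9 were higher, and edgeR on the 4 tube libraries alone called 16, all higher. The median log2 difference was −0.02. CPM of both 800 µM libraries lay above both others in 2140 genes (19.3%) and below in 2488 (22.5%).

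The genes with the smallest p on the higher side were Cdc42ep3, Slc16a1, Cdc40, Sdhd, Kif20b and Snrpf, none of which passed in the 12-library fit. In the 4-library fit edgeR called Cdc42ep3, Slc16a1, Sdhd and Snrpf, and with no count filter, over 15014 genes, it called all 6. Cdc42ep3 (chromosome 17, 79333727 to 79355091), an effector of the GTPase Cdc42, had 99.1, 206, 418 and 407 CPM (log2 difference 1.43, SE 0.24, edgeR adjusted p = 0.108), with 200 µM replicate A far below replicate B. Its tube libraries without 4sU had 261 and 183 CPM. Slc16a1, a lactate transporter, had tighter replicates, with 63.9, 65.5, 112 and 105 CPM (log2 difference 0.75, SE 0.15, edgeR adjusted p = 0.175; DESeq2 adjusted p = 0.0204). Without 4sU it had 106 and 88.8 CPM, near the 800 µM values. Cdc40, a splicing factor, had 16.6, 14.7, 30.3 and 32.4 CPM, and Kif20b, a mitotic kinesin, 27.1, 18.8, 39.9 and 46.0 CPM. Sdhd, a subunit of succinate dehydrogenase, had 5.81, 7.35, 36.1 and 22.1 CPM (log2 difference 2.13, SE 0.42), and Snrpf (chromosome 10, 93583029 to 93589706), a core protein of spliceosomal snRNPs, 37.8, 76.6, 183 and 161 CPM. Without 4sU these varied widely between replicates, at 28.6 and 8.13 CPM for Sdhd and 155 and 80.5 CPM for Snrpf. In 5 of the 6, all but Cdc42ep3, both 200 µM libraries were below both libraries without 4sU. The dose comparison shares its 200 µM libraries with that one. Without 200 µM replicate B, edgeR called Cdc42ep3 and Pfn1 (log2 differences 2.06 and 1.91).

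On the lower side stood Slc38a2, Il34, S100pbp and Dancr. Slc38a2 (chromosome 15, 96687392 to 96699730), an amino acid transporter, had 336, 318, 238 and 206 CPM (log2 difference −0.56, SE 0.12, edgeR adjusted p = 0.190; DESeq2 adjusted p = 0.0267). Il34, a cytokine, had 39.6, 39.5, 24.9 and 23.4 CPM, and S100pbp, an S100P-binding protein, 110, 86.3, 62.2 and 65.6. Dancr, a long noncoding RNA, is listed under a pair of gene IDs whose reads may be divided between them; the one on chromosome 5 (74093060 to 74095406) had 47.3, 49.2, 26.1 and 31.2 CPM. In all 4 the doses did not overlap.

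**Figure D3:**
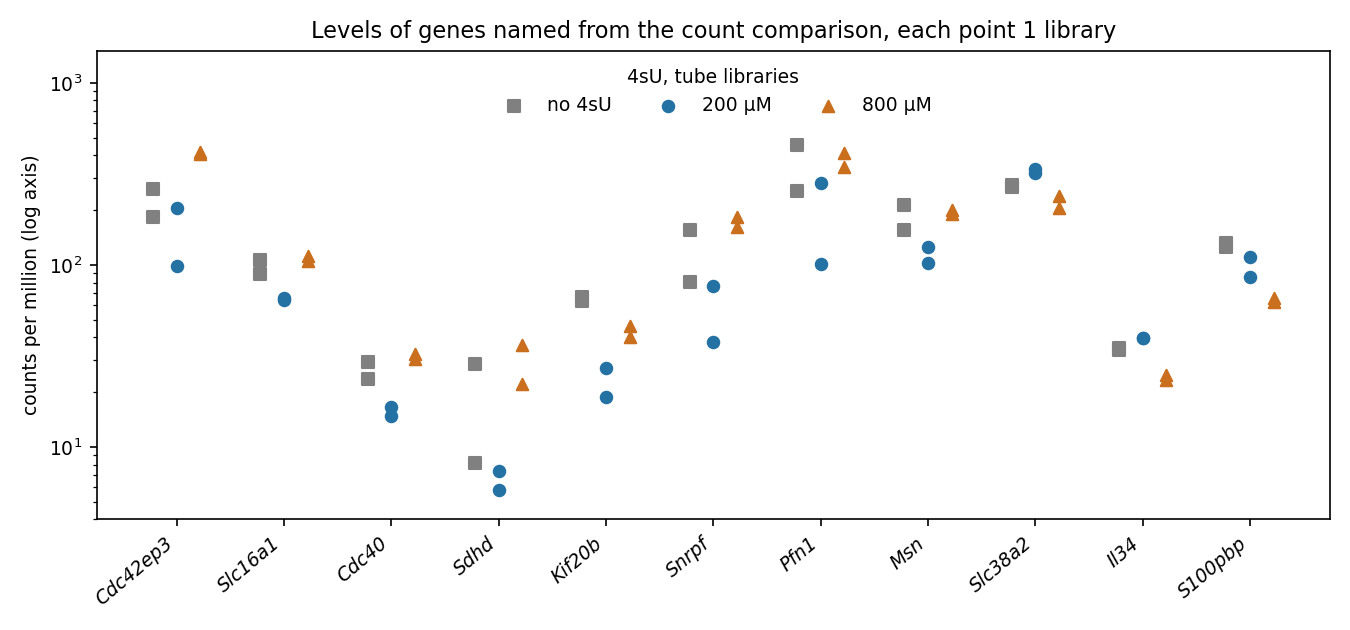
Scaled counts (CPM) (log axis) of 11 genes in the tube libraries, each point 1 library, at no 4sU (squares), 200 µM (circles) and 800 µM (triangles). In all of them the 200 µM and 800 µM points do not overlap, and none passed the adjusted threshold in the 12-library edgeR fit; the 200 µM replicates of Cdc42ep3, Snrpf and Pfn1 are at least 2 times apart.

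By group, replication-dependent histones were higher in both 800 µM libraries in 11 of 22 and lower in 0, against 19.3% and 22.5% of all genes, with a median log2 difference of 0.23. These transcripts lack a poly(A) tail and most were low, as for Hist1h1b, a linker histone, with 1.72, 1.37, 3.83 and 4.54 CPM. Targets of p53 were higher in 11 of 26 and lower in 1 (median 0.20). Phlda3, a p53-induced repressor of Akt, had 81.1, 58.5, 104 and 98.1 CPM, whereas Cdkn1a, the p53-induced cell cycle inhibitor, had 272, 245, 286 and 257 CPM, with doses that overlap. Ribosomal protein genes were lower in 33 of 79 and higher in 1 (median −0.13), and oxidative phosphorylation genes lower in 26 of 62 and higher in 5 (median −0.10). The 19.3% and 22.5% are not matched for read number, and both lists have many reads (6307 and 1045 at the median of their ratio genes). Among all ratio genes, medians were also negative in the 617 shortest (−0.09) and the 615 with the lowest ratios (−0.07). Cox6a1, of cytochrome oxidase, had 532, 528, 436 and 387 CPM (log2 difference −0.36, SE 0.12, edgeR adjusted p = 0.417). Genes of the integrated stress response were higher in 5 of 23 and lower in 5, and heat shock genes higher in 2 of 19 and lower in 2. Immediate early genes were mixed, with 11 of 39 higher and 6 lower; Hbegf, an EGF receptor ligand, had 123, 114, 185 and 167 CPM, and Myc 9.46, 26.0, 41.3 and 32.1. The medians of these 4 main groups kept their sign under RLE size factors and when libraries were scaled on the genes with the lowest ratio. These lists are described by their counts, and no member passed the adjusted threshold in the 12-library edgeR fit.

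The count difference also followed U content. In the ratio genes, the median log2 difference went from −0.10 in the genes with the least U to 0.04 in those with the most, while the median logit difference of the ratio went from −0.13 to −0.24 and the share with a lower fitted ratio from 67.0% to 82.1%. Spearman's rho across genes was 0.182 between U share and count difference (n = 11068) and −0.121 between U share and logit difference (n = 6141). Genes rich in U thus had slightly more reads and a lower ratio at 800 µM; the shifts are smaller than the spread of single genes, and their cause was not tested.

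**Figure D4:**
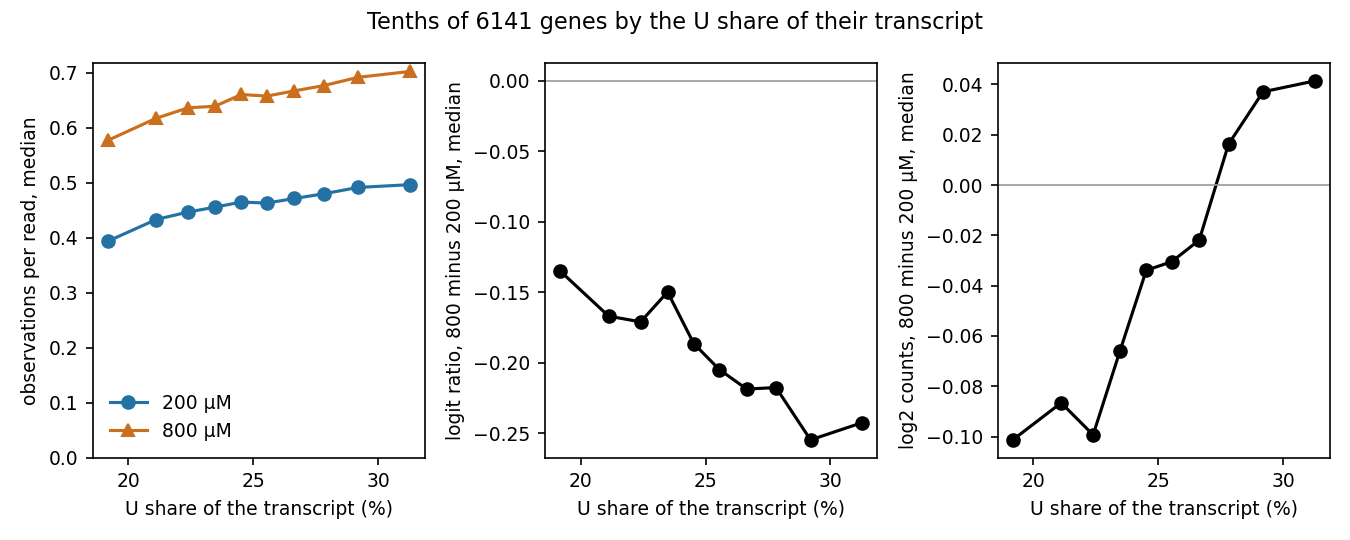
Medians in 10 groups of genes ordered by the U share of their transcript (%), for observations per read at 200 µM (circles) and 800 µM (triangles), for the logit ratio and for log2 counts (800 minus 200 µM). From the fewest to the most U, observations per read go from 0.394 to 0.496 at 200 µM and from 0.577 to 0.702 at 800 µM, the logit difference from −0.13 to −0.24 and the count difference from −0.10 to 0.04.

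Multiplying CPM by the ratio splits each gene's level into a new and an old part. Both parts are computed from the counts and ratios compared above, so they restate those results and are not separate evidence. This split was chosen after the values were seen and used the 5790 genes with ratios of 2% to 98% in all 4 libraries. Over all genes the new part was lower (median log2 difference −0.17) and the old part higher (0.07), and the new part was lower in both 800 µM libraries in 2316 genes (40%) and higher in 476 (8.22%), while the old part was higher in 1671 (28.9%) and lower in 863 (14.9%). By limma, 0 genes passed a BH p of 0.05 in either part (smallest 0.0949 for new and 0.127 for old), and 918 and 597 passed an unadjusted p of 0.05. With 200 µM replicate A left out, 457 new parts and 336 old parts passed, and with 200 µM replicate B left out 111 and 164; with either 800 µM library left out, 0 did.

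In Snrpf, Msn and Pfn1 the old parts did not overlap between the doses. The new part of Snrpf was 16.7, 15.9, 17.3 and 18.7 CPM, whereas its old part was 21.2, 60.6, 166 and 142 CPM (log2 difference 2.10, SE 0.38; 1.34 without 200 µM replicate A and 2.86 without replicate B). For Msn the new part was 39.2, 41.0, 38.5 and 39.0 CPM and the old part 63.6, 83.9, 160 and 150 (log2 difference 1.09, SE 0.16). Pfn1 had a new part of 18.3, 34.2, 22.8 and 21.5 CPM and an old part of 82.6, 246, 390 and 325 (log2 difference 1.32, SE 0.39; 0.53 without 200 µM replicate A and 2.11 without replicate B), and its new part overlapped between the doses. In Snrpf and Msn the 800 µM totals were thus the higher ones and the 800 µM ratios the lower ones. Malat1, a nuclear long noncoding RNA, had a new part of 478, 435, 503 and 494 CPM and an old part of 1164, 496, 1313 and 1745; its 200 µM replicates differed more than 2 times in the old part, and its total was 1642, 931, 1816 and 2239 CPM. Slc16a1 was higher in both parts, with a new part of 24.5, 23.5, 45.7 and 42.4 CPM and an old part of 39.4, 42.0, 66.7 and 63.1. Slc38a2 was lower in both, with an old part of 79.0, 70.7, 39.3 and 35.0 CPM. None of these passed the adjusted threshold with all 4 libraries.

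**Figure D5:**
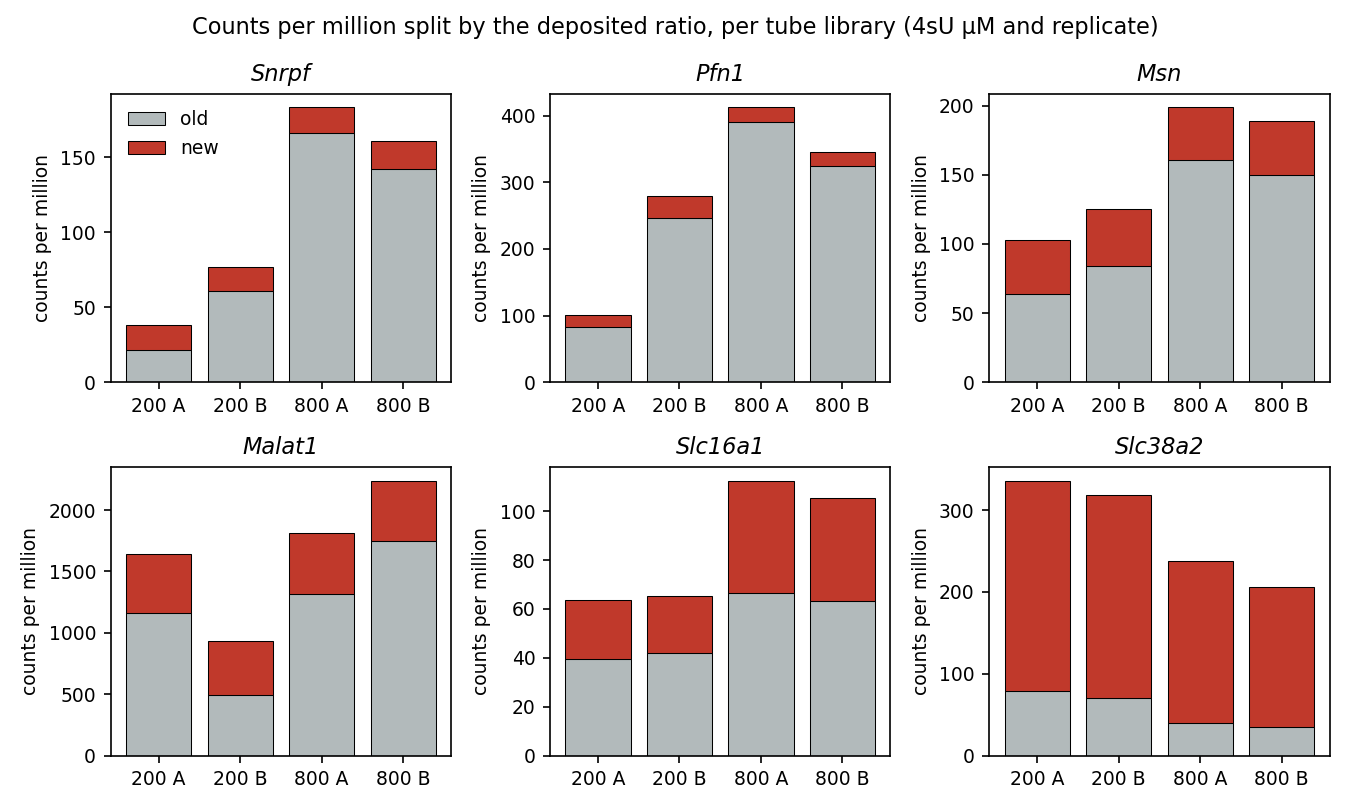
Scaled counts (CPM) of 6 genes in the 4 tube libraries, split by the deposited ratio into old (grey) and new (red) parts that add up to the total. The new part of Snrpf stays between 15.9 and 18.7 CPM while its old part goes from 21.2 and 60.6 to 166 and 142 CPM, and Slc38a2 is lower at 800 µM in both parts.

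Whether the dose step was particular to tubes was tested against the same step in fixed cells. The procedures also differed in conversion temperature, so procedure and temperature cannot be told apart. In counts, 0 of 11080 genes differed at a BH p of 0.05 in edgeR (smallest 0.276; 1073, or 9.68%, at an unadjusted p under 0.05), and DESeq2 called Eif4ebp2 and Actr1b. Leaving out the fixed-cell library that stood apart leaves 1 library of fixed cells at 800 µM, replicate B. The tube step minus the fixed-cell step was then log2 3.13 for Sdhd, 2.20 for Snrpf and −1.28 for Upf1. Snrpf had 230 and 199 CPM in fixed cells at 200 µM and 291 and 139 at 800 µM, and Sdhd had 65.4, 54.4, 50.9 and 30.0. In the ratio, 0 of 5532 genes differed (smallest adjusted p = 0.368; 269, or 4.86%, at an unadjusted p under 0.05), and the median difference of 0.12 logits turned to −0.04 without that library. In observations per read, 0 genes differed (20 at an unadjusted p under 0.05, 419 without that library) and the median difference of 0.47 turned to −0.10. Over these genes fixed cells had medians of 0.430 and 0.441 at 200 µM and 0.295 and 0.655 at 800 µM, and tubes 0.487, 0.454, 0.663 and 0.659, so replicate B in fixed cells was near the tube values at 800 µM and replicate A was not.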

How the data were processed

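The deposited table holds 15217 genes in 12 libraries. Read numbers are expected counts deposited by the authors (16.17% to 22.03% of values are not whole); they were rounded for the tests, and the 4 tube libraries hold 4542666 to 7504638 counts. The ratio and its quantiles are a fraction from 0 to 1 estimated by the authors, printed here in percent, and alpha and beta are a score per gene, per the file headers; alpha/(alpha+beta) lay within 1 percentage point of the deposited mean for 97.33% of values. The depth behind a ratio is the gene's reads. Tools listed without a role, per the submitters' processing notes, are STAR 2.7.10b, Bowtie2 2.3.0 and cutadapt. No genome build or ratio tool is given in the sources used here. CPM are counts per TMM-scaled library total.

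Counts were tested with edgeR 4.0.16 (quasi-likelihood, TMM, minimum count 10 and total 15, 6 groups of 12 libraries, residual df 6). Ratios, held 0.001 from 0 and 1, were tested as logits, and widths and observations per read as log2 values, with limma 3.58.1 (trend, residual df 2), in R 4.3.3, for genes with at least 100 reads in all libraries of the fit. Adjusted p-values are Benjamini-Hochberg over all genes of a fit, at 0.05, in 7 comparisons. DESeq2 1.42.0, other filters, scalings, weights, a replicate block and leaving out each library were alternatives; the new and old parts and the fits without a fixed-cell library were chosen after seeing the data. The scripts were tested on simulated data. Python 3.11.15 and matplotlib 3.10.9 drew the figures.

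The comparison, the members and the 23 gene lists were chosen with earlier results of these data known. Named genes are, by rule, the 10 with the largest change each way past the threshold or else the 6 with the smallest p, the 3 extremes each way of width and of observations per read, the 2 smallest p of a described list and 7 set genes; unnamed gene models were passed over. Genes named from small counts, and those of the new and old split, were chosen after their values were seen. Some genes the rule names are not reported here.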

Additional observations from a re-analysis of the deposited data

How the results depend on the processing

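With DESeq2 12 genes were called in counts, with no count filter 92 (80 higher), in the 4-library fit 16, and with 1 library left out 0 to 2. For the count step in tubes minus fixed cells DESeq2 called 2 genes, and 3 were called without fixed 800 µM replicate A. Interval weights gave 131 ratio calls and leaving out 1 library 0 to 32 (all 30 and 32 at 100% in both 200 µM libraries, with no spread there), with a median logit difference of −0.24 to −0.13. The median log2 width was −0.38 at read numbers within 1.2 times, where 0.199% of genes were called narrower; the 8-library fit gave 0% and leaving out 1 library 45% to 91.1%. The median step in observations per read was 0.42 to 0.53 with 1 library left out, and 0% rose in the 8-library fit. Its difference from fixed cells was −0.0954 without fixed 800 µM replicate A. Without 1 library 0 to 457 new parts and 0 to 336 old parts passed.

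The labels do not say whether libraries with the same letter shared a culture or batch. The deviations of A from B correlated between groups by −0.104 to 0.0946 in counts and −0.0239 to 0.0837 in ratios, which does not settle it. With the replicate block 0 genes were called in counts (929 at an unadjusted p under 0.05) and 0 in ratios; with the block in the 8-library fit 0.108% were narrower and 0% rose in observations per read, and in the 4-library fit 87.7% and 92.2%.

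Leaving out 1 library moved the count difference of Gapdh over −0.16 to 0.36, Fos −0.44 to 0.45, Nr4a1 −0.0902 to 0.27 and Cdkn1a −0.0066 to 0.15, the logit difference of Actb over −0.0282 to 0.0162 and the new part of Pfn1 over −0.63 to 0.27. With libraries centred on their median, the logit differences of Gapdh and Actb turned to 0.035 and 0.19. The causes were not tested. Both the spread between 2 libraries a group and read number limit single genes: both 800 µM ratios lay lower in 30.1% of the genes with the fewest reads and 69.8% of those with the most.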
